A study of Homo sapiens with 6 samples.

Results

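The NRF2 and glutathione defence genes described here are NFE2L2, which encodes the transcription factor NRF2, its repressor KEAP1, and 8 genes for enzymes or a transporter of the thiol defence system: SLC7A11, GCLC, GCLM, GSR, GPX4, TXNRD1, SRXN1 and NQO1. They were taken by name, as the 10 genes with these symbols among 20348 genes, a rule that uses no measured value, though the set was drawn up with earlier results of these data known. The cells were MV4-11, an established human acute myeloid leukemia (AML) cell line. WNK463 is a small molecule that inhibits the WNK kinases, a family of serine/threonine kinases best known for the control of ion transport and cell volume. The 3 Control samples were untreated, and the 3 WNK463 samples had 1 μM of the compound for 48 h. mRNA captured on beads was sequenced, so the data cover 1 line, 1 dose and 1 time point, and carry no protein or thiol measurement.

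NRF2 is a transcription factor that KEAP1 holds in the cytoplasm and hands to the proteasome through a CUL3 ubiquitin ligase. When reactive oxygen species or electrophiles modify cysteines of KEAP1, NRF2 escapes degradation, enters the nucleus, pairs with a small MAF protein and binds antioxidant response elements (AREs) near genes for glutathione synthesis, thioredoxin recycling and quinone reduction. Glutathione, a cysteine-containing tripeptide, is the main small thiol of the cell, and AML blasts, like other leukemia cells, rely on it and on the thioredoxin system to keep peroxides low. Since NRF2 is controlled mainly at the level of protein stability, the mRNA of NFE2L2 does not measure NRF2 activity.

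Total counts per sample lay between 15328483 and 17411780 in Control and between 14915745 and 16171235 with WNK463. After a filter on low counts 11973 genes were tested with edgeR, and all 10 members were among them. Levels are given as CPM, counts per 1000000 of the library size scaled by edgeR's TMM factors, or as the TPM that the authors deposited, which is per transcript length. These TMM factors were 0.944 to 0.952 in Control and 1.05 to 1.06 with WNK463. With scaling by total counts the median log2 fold change of all genes was therefore 0.15 higher, and changes below are relative to the TMM scale. Of the called genes 50.2% were higher with TMM and 63.9% with total counts. The labelled cell type was checked on 12 myeloid and leukemia markers, of which 11 were tested. SPI1, a myeloid transcription factor, was at 213 to 223 CPM and FLT3, a receptor kinase of AML blasts, at 317 to 382 CPM, while CD14, a monocyte marker, was below the filter. The summed level of these markers was 2511 to 2642 CPM in Control and 1691 to 1729 CPM with WNK463, with 6 higher and 4 lower. The fall of the sum came from the lysozyme gene LYZ (log2 fold change -2.22). Without LYZ the sum was 1185 to 1237 CPM in Control and 1404 to 1425 CPM with WNK463. The higher markers were PTPRC (log2 fold change 1.20), ITGAM (1.25) and CSF1R (0.96), of leukocytes and myeloid cells, and HOXA9 (0.72), MEIS1 (0.33) and CEBPA (0.18). Those lower beside LYZ were MPO (-2.50), CD33 (-0.38) and FLT3 (-0.205). The fall of FLT3 depended on the scale, at 179.6 ± 10.9 TPM in Control and 178.1 ± 3.03 TPM with WNK463 (SD, n = 3). Among 13 markers of other cell types, 11, including CD3E, EPCAM, COL1A1, HBB and ALB, were below the filter. The sum of all 13 was 102.1 to 115.9 CPM in Control and 170.0 to 183.9 CPM with WNK463. Most of it was PECAM1, at 91.4 to 105.0 CPM in Control and 163.1 to 176.5 CPM with WNK463 (log2 fold change 0.805). KRT18, also tested, was lower (-0.685). Whether PECAM1 mRNA came from the MV4-11 cells or from other cells was not tested. The part of these marker shifts in the results was not tested.

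The regulatory sequence near the gene starts is shown first, because the ARE is the element through which NRF2 reaches these genes. RefSeq promoter windows (GRCh38.p14, 250 bases before to 50 after an annotated start) were matched by symbol for 8 of the 10 members (all but SLC7A11 and GSR), in 13 windows. The ARE core TGACNNNGC was searched on both strands, where it reads GCNNNGTCA on the other strand. It occurred in 13.3% of all 35116 windows and in at least 1 window of 16.1% of 27305 genes. Among the members 3 of 8 held it, GCLM, KEAP1 and TXNRD1, in 4 of 13 windows. A match is a run of letters and was not tested for NRF2 binding. A missing match speaks only for these windows, as sequence farther from the starts was not searched. The stretches below run 5′ to 3′ on the strand of the gene, from 120 bases before the start to the first 10 bases from it. Capitals mark the matches. The stretch of KEAP1 is chr19:10502762-10502891 (minus strand), with matches TGACACGGC and GCTTAGTCA that begin 54 and 31 bases before the start. This is the downstream of 2 annotated KEAP1 starts, and the window of the upstream one (chr19:10503307-10503606) held no match. That of GCLM is chr1:93909421-93909550 (minus strand), with GCTTAGTCA beginning 34 bases before the start. TXNRD1 has a match at each of 2 annotated starts, in chr12:104215659-104215788 and chr12:104286912-104287041 (plus strand), at 99 and 8 bases before the upstream start and 102 bases before the downstream one. GCLC at chr6:53545092-53545221 (minus strand) and SRXN1 at chr20:653191-653320 (minus strand) are printed beside them as 2 of the 3 members that changed most, and neither stretch holds a match.
KEAP1: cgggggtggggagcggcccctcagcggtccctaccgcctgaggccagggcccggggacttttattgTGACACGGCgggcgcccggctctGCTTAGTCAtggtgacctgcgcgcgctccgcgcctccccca
GCLM: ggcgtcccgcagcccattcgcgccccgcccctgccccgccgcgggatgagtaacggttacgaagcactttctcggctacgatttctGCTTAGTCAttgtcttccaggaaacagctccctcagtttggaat
TXNRD1 upstream start: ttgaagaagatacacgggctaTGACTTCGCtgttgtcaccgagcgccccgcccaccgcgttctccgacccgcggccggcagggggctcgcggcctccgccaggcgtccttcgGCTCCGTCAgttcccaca
TXNRD1 downstream start: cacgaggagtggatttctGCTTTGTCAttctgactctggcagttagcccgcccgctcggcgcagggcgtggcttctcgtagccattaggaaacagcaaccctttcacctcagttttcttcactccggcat
GCLC: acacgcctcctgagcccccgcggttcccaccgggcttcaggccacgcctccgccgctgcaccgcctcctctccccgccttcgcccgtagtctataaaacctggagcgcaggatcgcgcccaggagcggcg
SRXN1: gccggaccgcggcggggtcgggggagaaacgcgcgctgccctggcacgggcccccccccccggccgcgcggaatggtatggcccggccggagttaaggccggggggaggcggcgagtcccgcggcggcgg
The same run, GCTTAGTCA, occurs in KEAP1 and GCLM.

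WNK463 was compared with Control to ask how the mRNA of this defence system stood after 48 h of WNK inhibition. The members split: 4 rose, 4 fell and 2 did not pass the test at an adjusted p below 0.05 (edgeR quasi-likelihood test, Benjamini-Hochberg over all 11973 genes). NFE2L2, SLC7A11, GCLC and GCLM rose, which are the NRF2 gene itself, the cystine importer and both subunits of the ligase that starts glutathione synthesis. SRXN1 and GSR, which repair oxidized peroxiredoxins and recycle oxidized glutathione, fell, as did KEAP1 and GPX4 by small amounts whose sign turned with scaling by total counts. NQO1 and TXNRD1 did not pass. At this threshold 35.5% of all tested genes were called higher, 35.3% lower and 70.8% in either direction, so a count of 8 of 10 members is close to what all genes show. With a log2 fold change of at least 1 as well, the background was 9.62% higher and 5.55% lower. SLC7A11 and GCLC passed this limit upwards and SRXN1 downwards. The 3 WNK463 values lay outside the range of the 3 Control values for 8 of 10 members, against 73.5% of all tested genes. The median log2 fold change of the members was -0.05, and of all genes 0.02. No source says that the samples came from separate cultures, so the p-values measure the spread between these samples. In bulk RNA, fewer cells of a kind and less RNA per cell cannot be told apart.

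**Figure D1:**
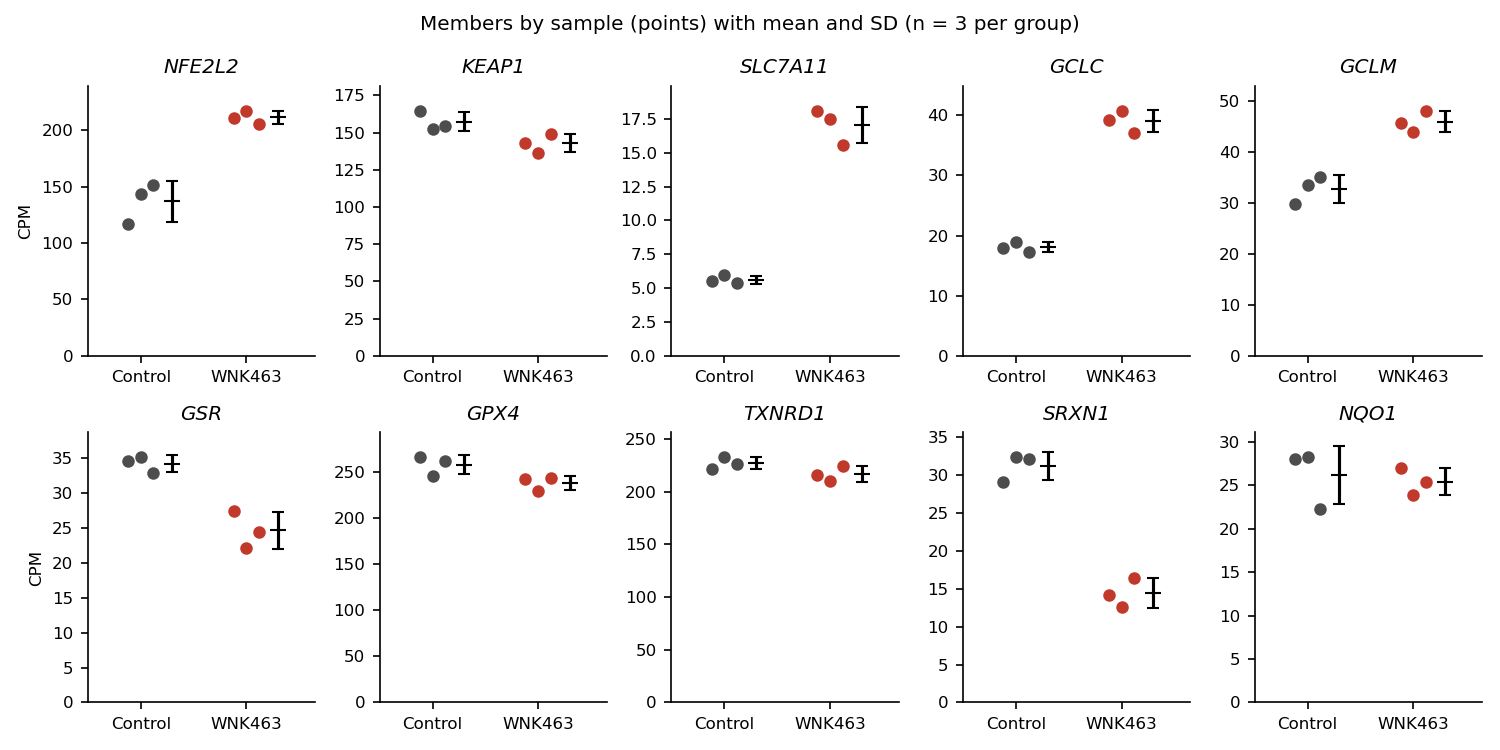
Level of each of the 10 genes in CPM (linear axis from 0, 1 panel per gene) in the 3 Control and 3 WNK463 samples, with points for samples and bars for the mean ± SD. The groups are apart for SLC7A11 (5.37 to 5.97 against 15.58 to 18.12 CPM), GCLC and SRXN1, and overlap for NQO1 and TXNRD1.

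Of the regulators, NFE2L2 (ENSG00000116044, GRCh38 chromosome 2, 177227595 to 177392697, minus strand) stood at 116.5, 143.1 and 151.1 CPM in the Control samples and at 211.0, 217.3 and 205.7 CPM with WNK463. All 3 treated samples were above all Control samples, and the first Control sample was the lowest of the 6. Group means (± SD, n = 3) were 136.9 ± 18.1 CPM in Control and 211.3 ± 5.82 CPM with WNK463. The rise was 1.54-fold, or 0.63 ± 0.07 on the log2 scale (± SE here and below, edgeR adjusted p = 3.5e-07). A larger absolute change was seen in 30.9% of tested genes. The exons of NFE2L2 share 54 bases with those of AGPS on the opposite strand and 1054 with a sense-overlapping gene model, and no source states whether counting used the strand.

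KEAP1, the substrate adaptor that binds NRF2 (ENSG00000079999, chromosome 19, 10486120 to 10503741, minus strand), measured 164.8, 152.7 and 154.7 CPM in Control and 143.1, 136.6 and 149.2 CPM with WNK463. Every treated value was below every Control value, but the nearest were 149.2 and 152.7 CPM. The mean was 157.4 ± 6.51 against 142.9 ± 6.31 CPM (SD, n = 3), a log2 fold change of -0.14 ± 0.05 (edgeR adjusted p = 0.024), smaller than that of 80.8% of tested genes. This call was lost without Control replicate 1 (edgeR adjusted p = 0.053), WNK463 replicate 1 (0.058) or WNK463 replicate 2 (0.10), and with total counts the value was 0.01 (edgeR adjusted p = 0.83).

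The ratio of NFE2L2 to KEAP1 does not depend on how libraries are scaled. Per transcript length it was 0.699, 0.973 and 0.975 in Control and 1.53, 1.58 and 1.36 with WNK463, from deposited TPM. NFE2L2 mRNA was thus below KEAP1 mRNA in each Control sample and above it in each WNK463 sample. The log2 difference was 0.77 (SD of the difference 0.30), with an exact two-sided permutation p of 0.10, the smallest that 3 against 3 samples allow.

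The synthesis arm begins with SLC7A11, the transporter subunit of system xc- that brings cystine into the cell in exchange for glutamate (ENSG00000151012, chromosome 4, 138164097 to 138242349, minus strand). It had 5.54, 5.97 and 5.37 CPM in Control and 18.12, 17.50 and 15.58 CPM with WNK463. The lowest treated sample was well above the highest Control sample, and both groups were tight. The log2 fold change was 1.60 ± 0.12 (edgeR adjusted p = 1.5e-09), 3.04-fold, and 6.01% of tested genes changed more in absolute terms. This was the largest relative change among the members, from the lowest level: 87 to 91 counts per Control sample and 244 to 301 counts with WNK463. SLC7A11-AS1, an antisense transcript, shares 865 exon bases with it. SLC3A2, the heavy chain that carries SLC7A11 to the membrane, was named after its values were seen. It did not pass the test, with a log2 fold change of -0.12 ± 0.06 (edgeR adjusted p = 0.092). Its direction depended on the scale, as its mean TPM was 113.4 in Control and 122.5 with WNK463.

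GCLC encodes the catalytic subunit of glutamate-cysteine ligase, the rate-limiting enzyme of glutathione synthesis (ENSG00000001084, chromosome 6, 53497341 to 53616970, minus strand). Its values were 17.9, 18.9 and 17.3 CPM in Control and 39.3, 40.8 and 37.0 CPM with WNK463. The treated samples were all above the Control samples, with a gap several times the spread in either group. The mean rose from 18.1 ± 0.816 to 39.0 ± 1.88 CPM (SD, n = 3), a log2 fold change of 1.11 ± 0.08 (edgeR adjusted p = 7.2e-10) or 2.16-fold, and 12.4% of tested genes changed more. An annotated lincRNA on the same strand shares 529 exon bases with GCLC.

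GCLM, the modifier subunit that raises the efficiency of GCLC (ENSG00000023909, chromosome 1, 93885205 to 93909456, minus strand), was at 29.7, 33.5 and 35.1 CPM in Control and 45.8, 44.0 and 48.1 CPM with WNK463. It rose too, without overlap of the groups, by a log2 fold change of 0.49 ± 0.08 (edgeR adjusted p = 1.4e-05) or 1.40-fold, and 41.4% of tested genes changed more. Both subunits of the ligase therefore rose, GCLC by more. The TPM ratio of GCLM to GCLC was 1.15, 1.25 and 1.43 in Control and 0.798, 0.783 and 1.03 with WNK463. It fell from 1.28 ± 0.139 to 0.871 ± 0.139 (SD, n = 3) without overlap, a log2 difference of -0.56 (SD of the difference 0.27), again with the smallest exact permutation p possible, 0.10.

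**Figure D2:**
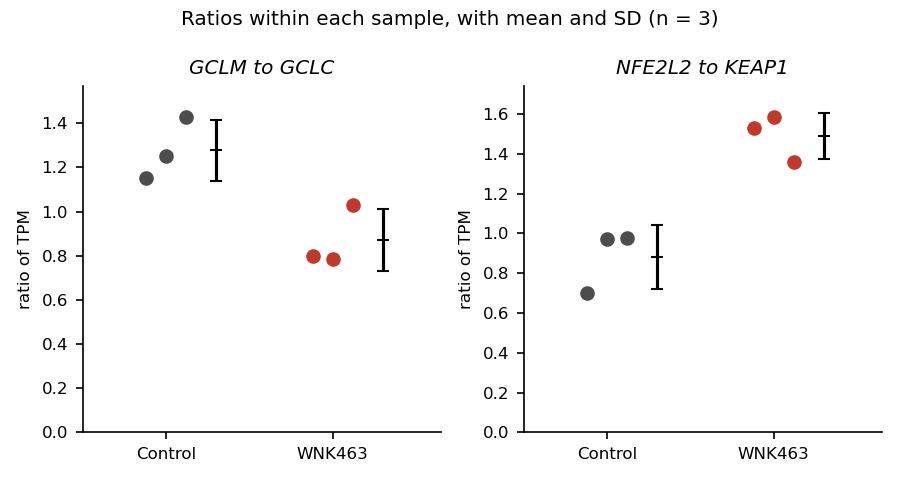
Ratio of deposited TPM within each sample, NFE2L2 to KEAP1 and GCLM to GCLC (linear axes from 0), for 3 Control and 3 WNK463 samples, with points for samples and bars for the mean ± SD. The first ratio is 0.699 to 0.975 in Control and 1.36 to 1.58 with WNK463, and the second is 1.15 to 1.43 and 0.783 to 1.03.

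The enzymes that reduce glutathione disulfide and lipid peroxides did not follow the synthesis genes. GSR, glutathione reductase, which returns oxidized glutathione to its thiol form with NADPH (ENSG00000104687), was at 34.6, 35.2 and 32.9 CPM in Control and 27.4, 22.1 and 24.5 CPM with WNK463. All treated samples were lower, and the spread was wider among them than in Control. The mean fell from 34.2 ± 1.21 to 24.7 ± 2.67 CPM (SD, n = 3), a log2 fold change of -0.47 ± 0.08 (edgeR adjusted p = 7.3e-05) or 1.39-fold lower. A larger absolute change was seen in 42.8% of tested genes.

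GPX4, the selenoenzyme that uses glutathione to reduce lipid hydroperoxides and thereby restrains ferroptosis (ENSG00000167468, chromosome 19, 1103926 to 1106791, plus strand), measured 266.0, 245.7 and 261.6 CPM in Control and 241.7, 229.2 and 243.0 CPM with WNK463. The groups did not overlap, but the highest treated sample was only 2.7 CPM below the lowest Control sample. The log2 fold change was -0.12 ± 0.05 (edgeR adjusted p = 0.040), and 84.0% of tested genes changed more. The call was kept without Control replicate 2 (edgeR adjusted p = 0.020) and lost without each of the other samples (0.055 to 0.14) and with at least 10 counts in every sample (0.072), and with total counts the value was 0.04 (edgeR adjusted p = 0.48).

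In the thioredoxin arm the data differed between the enzyme for thioredoxin and that for peroxiredoxins. TXNRD1, the cytosolic thioredoxin reductase (ENSG00000198431, chromosome 12, 104215779 to 104350305, plus strand), was at 221.5, 232.9 and 226.2 CPM in Control and 216.1, 209.7 and 224.5 CPM with WNK463. The groups overlapped. The log2 fold change was -0.07 ± 0.05 (edgeR adjusted p = 0.22), with the opposite sign, 0.09, under total counts (edgeR adjusted p = 0.097).

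SRXN1, sulfiredoxin, which reduces the overoxidized cysteine of peroxiredoxins and is a classical NRF2 target (ENSG00000271303, chromosome 20, 646615 to 653370, minus strand), went the other way from GCLC by a like amount. It had 29.1, 32.4 and 32.1 CPM in Control and 14.2, 12.6 and 16.5 CPM with WNK463. Every treated sample was far below the Control samples. The mean fell from 31.2 ± 1.81 to 14.4 ± 1.94 CPM (SD, n = 3), a log2 fold change of -1.11 ± 0.10 (edgeR adjusted p = 1.3e-08) or 2.17-fold lower, and 12.3% of tested genes changed more. A protein-coding gene model on the same strand, AL121758.1, shares 2292 exon bases with SRXN1 and had 0 CPM in all samples.

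NQO1, the quinone reductase often used as a readout of NRF2 activity (ENSG00000181019, chromosome 16, 69706996 to 69726951, minus strand), was at 28.0, 28.3 and 22.3 CPM in Control and 27.0, 23.8 and 25.4 CPM with WNK463. The third Control sample was the lowest of all and the treated values lay between it and the other Control samples. The log2 fold change was -0.04 ± 0.10 (edgeR adjusted p = 0.70), and its sign turned with total counts (0.11). At this spread no difference was detectable, which is not evidence of equal levels. An antisense gene shares 575 exon bases with NQO1.

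**Figure D3:**
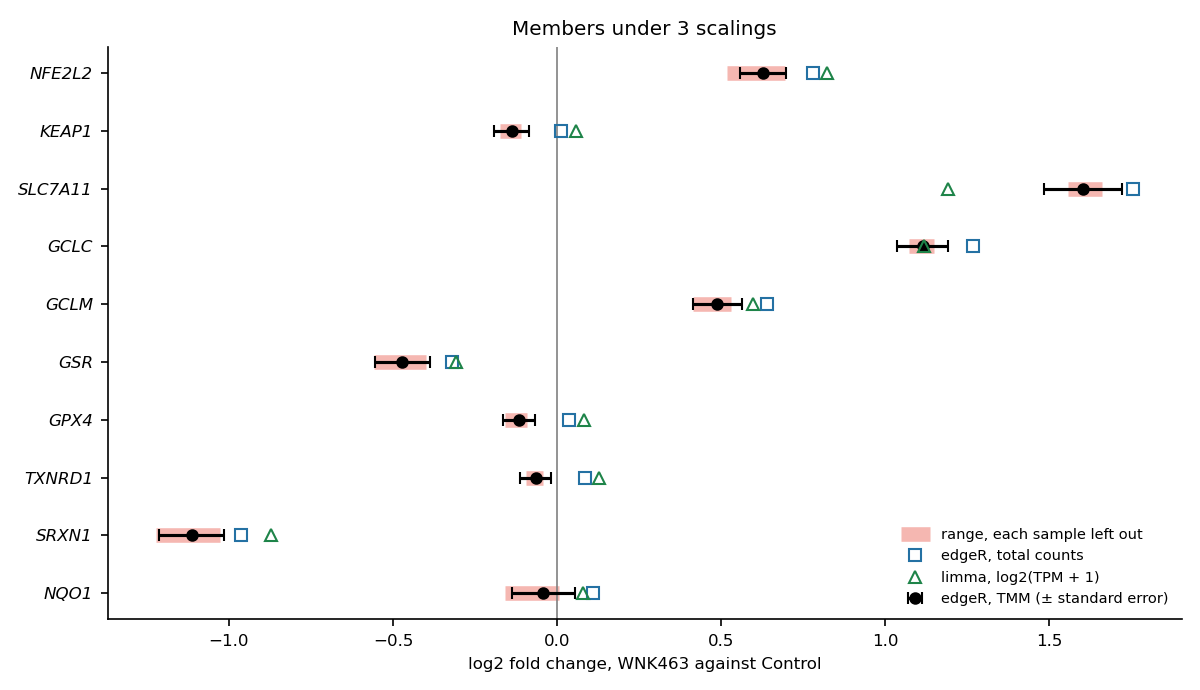
Log2 fold change of each of the 10 genes, WNK463 against Control, on the horizontal axis, with 1 line per gene: black points for edgeR with TMM (bars ± SE), squares for total counts, triangles for limma on log2(TPM + 1) and pink bands for the range with each sample left out. SLC7A11 (1.19 to 1.76), GCLC, NFE2L2 and GCLM are above 0 and SRXN1 and GSR below 0 in all of these, while KEAP1, GPX4, TXNRD1 and NQO1 cross 0 with total counts and with TPM.

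Compared between genes per transcript length, GPX4 was the most abundant member in both groups, with 602 ± 19.9 TPM in Control and 637 ± 17.4 TPM with WNK463 (SD, n = 3). In Control it was followed by TXNRD1 (135 ± 8.99 TPM), then KEAP1 (119 ± 5.0) and NFE2L2 (105 ± 16.1), whose sample values overlapped, NQO1 (38.8 ± 4.90), SRXN1 (22.9 ± 1.57) and GSR (22.0 ± 0.542), which also overlapped, GCLM (13.8 ± 1.45), GCLC (10.9 ± 0.707) and SLC7A11 (1.26 ± 0.379). With WNK463 the order changed. NFE2L2 stood second at 184 ± 8.21 TPM, above TXNRD1 and KEAP1. GCLC (24.8 ± 2.62 TPM) and GCLM (21.4 ± 1.13 TPM), whose values overlapped, stood above GSR (17.6 ± 2.00 TPM) and SRXN1 (12.1 ± 1.54 TPM). SLC7A11 remained the lowest at 4.14 ± 0.355 TPM.

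Around the members, the partners and regulators of NRF2 had a median log2 fold change of 0.22 over 16 of 17 genes tested. In this list 8 were higher, 3 lower and 5 not called, beside 35.5% higher and 35.3% lower among all tested genes. SQSTM1, the autophagy receptor p62 that sequesters KEAP1 and is itself an NRF2 target, went from 160.5, 155.2 and 147.4 CPM to 299.8, 307.4 and 319.0 CPM, a log2 fold change of 1.00 ± 0.05 (edgeR adjusted p = 6.6e-12). NFE2, a related CNC transcription factor of blood cells, rose by 1.24 ± 0.11 (1.2e-08) and GSK3B, a kinase that marks NRF2 for degradation, by 0.47 ± 0.06 (6.6e-07). PGAM5, a mitochondrial phosphatase that binds KEAP1, fell by 0.87 ± 0.06 on the log2 scale (5.7e-10), and DPP3 and AMER1, other KEAP1 binding proteins, had log2 fold changes of -0.34 and -0.41. The calls of DPP3 and AMER1 were lost in the 3 limma fits on TPM (adjusted p = 0.10 to 0.13 and 0.15 to 0.19), which left 1 gene of this list lower. CUL3, the ligase scaffold, did not pass the test (0.05 ± 0.06, edgeR adjusted p = 0.44). BACH1, the repressor that competes with NRF2 at AREs, was higher (0.50 ± 0.07, edgeR adjusted p = 4.9e-06). Both depended on the scale. On deposited TPM the groups of CUL3 were apart, at 78.22 to 95.28 in Control and 100.8 to 103.8 with WNK463. Those of BACH1 overlapped, at 15.89 to 27.79 TPM in Control and 22.61 to 28.09 TPM with WNK463. CUL3 and BACH1 were picked with their values in view.

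Of 31 other NRF2 target genes listed, 26 were tested, and 11 were higher, 5 lower and 10 not called, with a median log2 fold change of 0.14. Among all tested genes 35.5% were higher and 35.3% lower. FTH1, the ferritin heavy chain that stores iron, was at 584.8 ± 34.5 CPM in Control and 1230 ± 36.3 CPM with WNK463 (SD, n = 3), a log2 fold change of 1.07 ± 0.05 (edgeR adjusted p = 2.5e-12). TRIM16, a ubiquitin ligase, and BLVRB, biliverdin reductase B of heme breakdown, rose by 0.96 ± 0.07 and 0.93 ± 0.07 (edgeR adjusted p = 6.6e-10 and 2.1e-09). HMOX1, heme oxygenase 1, named after its values were seen, was higher (1.74 ± 0.34, edgeR adjusted p = 0.00017) but close to the filter on low counts, with a mean of 0.767 CPM in Control and 2.62 CPM with WNK463. TALDO1, transaldolase of the pentose phosphate pathway, fell by 0.64 ± 0.05 (edgeR adjusted p = 3.1e-09) and PIR, pirin, by 1.55 ± 0.22 (4.6e-06). AKR1C2, an aldo-keto reductase, fell by 1.17 ± 0.09 (1.0e-09), a value that is uncertain because its near-identical paralog AKR1C1 can share reads. ME1, ABCC3, AKR1B10, AKR1C3 and CYP4F11 were below the filter.

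In glutathione synthesis, breakdown and transport beyond the members, 6 of 18 tested genes rose, 7 fell and 5 were not called (median log2 fold change -0.03, 19 listed). These counts are close to the 35.5% higher and 35.3% lower of all tested genes. The widest change of this list was in GGT5, an extracellular gamma-glutamyl transferase that cleaves glutathione conjugates such as leukotriene C4. It stood at 9.76 ± 0.463 CPM in Control and 151 ± 8.57 CPM with WNK463 (SD, n = 3), a log2 fold change of 3.95 ± 0.07 (edgeR adjusted p = 3.4e-17). DPEP2, a dipeptidase that acts next on the same leukotrienes, rose by 1.20 ± 0.17 (3.9e-06). CBS, cystathionine beta-synthase, the entry to cysteine synthesis from homocysteine, was at 5.22 ± 0.494 CPM in Control and 0.757 ± 0.279 CPM with WNK463, a log2 fold change of -2.79 ± 0.28 (edgeR adjusted p = 8.5e-08). SLC25A39, the mitochondrial glutathione carrier, fell by 0.75 ± 0.05 (4.4e-10), while its paralog SLC25A40 rose by 0.34 ± 0.06 (7.0e-05). SLC1A5, a glutamine transporter, fell by 0.76 ± 0.06 (3.5e-09). GSS, which completes glutathione synthesis after the ligase and was named after its values were seen, had a log2 fold change of -0.16 ± 0.06 (edgeR adjusted p = 0.028). Its direction depended on the scale, as its mean TPM was 61.65 in Control and 63.76 with WNK463.

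Among glutathione peroxidases, transferases and glutaredoxins, 20 of 33 listed genes were tested, with 6 higher, 7 lower, 7 not called and a median log2 fold change of -0.02. The shares of all tested genes were 35.5% higher and 35.3% lower. GLRX, the cytosolic glutaredoxin that removes glutathione from proteins, rose from 17.0 ± 1.34 to 32.2 ± 2.72 CPM (SD, n = 3), a log2 fold change of 0.93 ± 0.09 (edgeR adjusted p = 5.1e-08). HAGH, which releases glutathione in methylglyoxal detoxification, and LTC4S, leukotriene C4 synthase, rose by 0.49 ± 0.09 and 0.46 ± 0.12 (9.1e-05 and 0.0016). GLO1, the enzyme that acts before HAGH, fell by 0.48 ± 0.05 (7.6e-08), as did ESD, an S-formylglutathione hydrolase (0.44 ± 0.05 on the log2 scale), and GLRX5, a mitochondrial glutaredoxin of iron-sulfur cluster assembly (by 0.37 ± 0.07).

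Thioredoxins, peroxiredoxins and related enzymes gave 7 higher, 5 lower and 9 not called among 21 of 23 genes tested (median 0.06). Beside these counts stand 35.5% higher and 35.3% lower among all tested genes. TXNIP, which binds and inhibits thioredoxin, rose from 396 ± 11.4 to 807 ± 13.7 CPM, a log2 fold change of 1.02 ± 0.04 (edgeR adjusted p = 1.1e-12). The mitochondrial reductase TXNRD2 fell by 0.73 ± 0.09 on the log2 scale (1.9e-06), as did the peroxiredoxin genes PRDX2, by 0.56 ± 0.05 (1.8e-08), and PRDX4, by 0.51 ± 0.09 (4.7e-05). MSRB1, a methionine sulfoxide reductase, rose by 0.34 ± 0.06, and NXN, a thioredoxin-like protein at under 8 CPM, by 1.20 ± 0.23. Of the superoxide dismutase and catalase genes, 4 of 5 were tested. SOD2, the mitochondrial dismutase, rose by 0.39 ± 0.07 (edgeR adjusted p = 3.7e-05) and CAT, catalase, fell from 462 ± 27.9 to 315 ± 6.35 CPM, by 0.55 ± 0.05 on the log2 scale (1.6e-08). CCS, the copper chaperone of SOD1, had a log2 fold change of 0.34 (0.015), and that of SOD1 was -0.14 ± 0.06 (0.042), with the opposite sign, 0.02, under total counts. The CCS call was lost with DESeq2 (adjusted p = 0.063), without Control replicate 3 (edgeR adjusted p = 0.065) and without WNK463 replicate 2 (0.10). That of SOD1 was lost without Control replicate 1 (edgeR adjusted p = 0.054), Control replicate 3 (0.056), WNK463 replicate 1 (0.25) or WNK463 replicate 3 (0.055), and with at least 10 counts in every sample (0.068).

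Selenocysteine is inserted into GPX4 and TXNRD1 by a dedicated set of factors. Of 20 tested genes for selenocysteine incorporation and selenoproteins among 26 listed, 7 rose, 8 fell and 5 were not called (median log2 fold change -0.05). These counts are close to the shares of all tested genes, 35.5% higher and 35.3% lower. SEPSECS and PSTK, which convert seryl-tRNA to selenocysteyl-tRNA, rose by 1.14 ± 0.08 and 1.33 ± 0.17 (edgeR adjusted p = 2.7e-10 and 2.0e-06), while SEPHS1, a selenophosphate synthetase homolog, and SCLY, selenocysteine lyase, fell by 0.79 ± 0.06 and 0.98 ± 0.07 (4.2e-09 and 1.1e-09). Of the selenoproteins of the endoplasmic reticulum, SELENON fell by 1.36 ± 0.07 (2.1e-11) and SELENOT rose by 0.51 ± 0.06 (2.8e-07). SELENOK, SELENOS and SELENOF, picked with their values in view, also rose, by 0.49, 0.45 and 0.14 (edgeR adjusted p = 0.00042, 0.00023 and 0.016), and SELENOI fell by 0.39 on the log2 scale (1.9e-05).

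SLC7A11 is also a target of ATF4, the transcription factor of the amino acid response, so that list was examined too. Of 15 tested genes among 16 listed, 6 rose, 6 fell and 3 were not called (median log2 fold change -0.03). Both counts are close to the shares of all tested genes, 35.5% higher and 35.3% lower. DDIT3, TRIB3 and CEBPB, stress-response regulators, rose by 0.72 ± 0.15, 0.61 ± 0.11 and 0.60 ± 0.07 (edgeR adjusted p = 0.00045, 7.8e-05 and 4.1e-07). PHGDH and PSAT1 of serine synthesis fell by 2.06 ± 0.14 and 1.34 ± 0.06 (5.9e-10 and 6.0e-13), as did SLC7A5, a large neutral amino acid transporter, by 0.75 ± 0.05 (2.1e-10). ATF4 itself, named after its values were seen, was higher by 0.17 ± 0.05 (edgeR adjusted p = 0.006). A part of ATF4 in the rise of SLC7A11 was not tested.

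The remaining genes of lipid peroxide defence and ferroptosis gave 4 higher, 3 lower and 5 not called among 12 of 14 tested (median log2 fold change -0.07). All tested genes gave 35.5% higher and 35.3% lower. SAT1, spermidine/spermine acetyltransferase, rose from 12.1 ± 0.824 to 49.6 ± 3.83 CPM (SD, n = 3), a log2 fold change of 2.04 ± 0.09 (edgeR adjusted p = 1.1e-12). ACSL4, which loads polyunsaturated fatty acids into membrane lipids, and NCOA4, the receptor for ferritin breakdown, rose by 0.45 ± 0.05 and 0.38 ± 0.04 (3.8e-07 and 4.1e-07). DHODH, a mitochondrial reductant of ubiquinone, PEBP1, a scaffold of lipoxygenases, and ALOX12, a lipoxygenase, fell by 0.69 ± 0.09, 0.39 ± 0.05 and 1.01 ± 0.19 on the log2 scale (3.6e-06, 3.0e-06 and 0.00013).

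**Figure D4:**
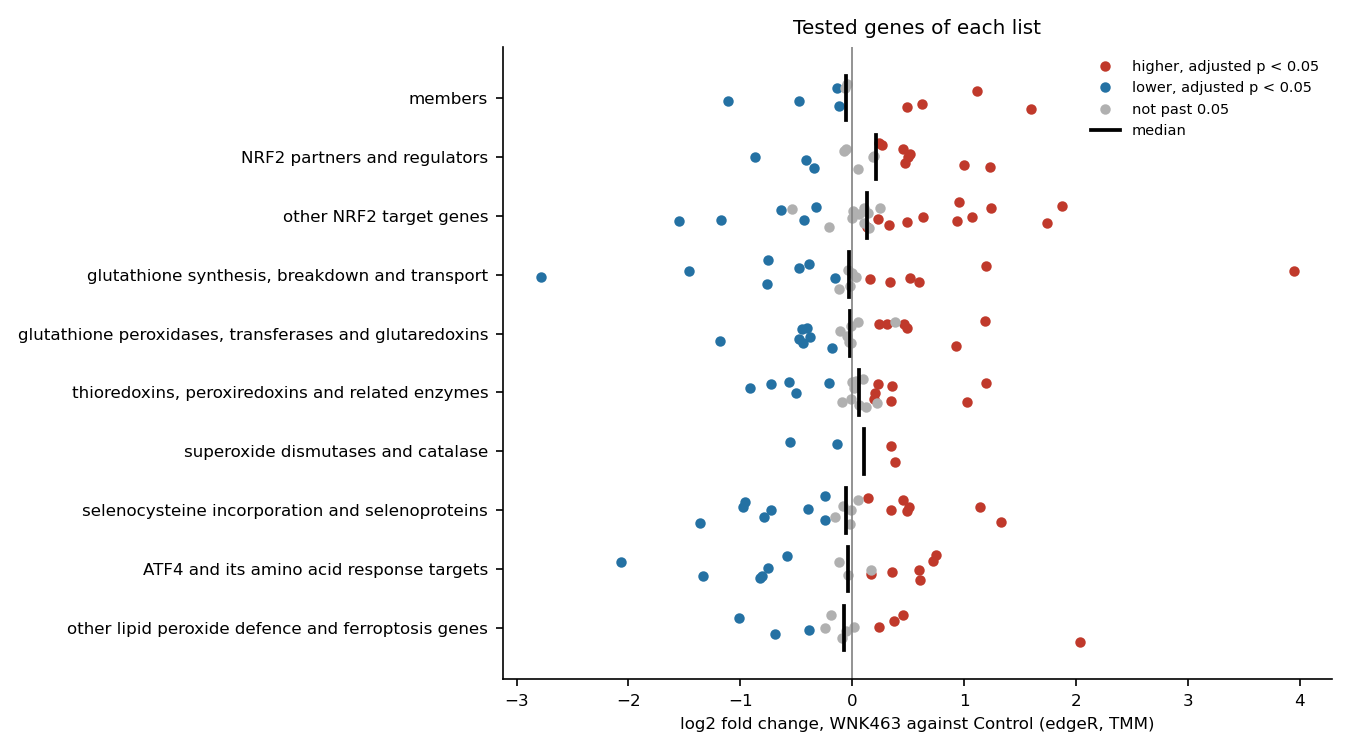
Log2 fold change (horizontal axis, edgeR with TMM) of each tested gene of the 10 members and of 9 gene lists around them, 1 point per gene, red for higher and blue for lower at an adjusted p below 0.05, grey for the rest, and a black bar for the median. Genes on both sides of 0 are seen in each list, with medians from -0.07 to 0.22 and extremes of 3.95 (GGT5) and -2.79 (CBS), and values near 0, those of SOD1, KEAP1, GPX4, TXNRD1 and NQO1 among them, change sign with total counts.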

How the data were processed

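RNA-seq of 3 Control and 3 WNK463 samples of MV4-11 cells was used. The authors deposited 1 table of 20348 genes with estimated counts per gene and sample, held as whole numbers and used as deposited, and the TPM of each sample. In 62 values the count was 0 beside a TPM above 0. Per the labels, the submitters' processing notes name fastp, Bowtie2, HISAT2, StringTie, RSEM, DESeq2 and edgeR and the build GRCh38, with no versions and no order. The deposited columns of the authors' own comparison (group mean TPM, log2 fold change, p-value and FDR) were not used.

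Counts were tested with edgeR 4.0.16 in R 4.3.3 (filterByExpr, TMM, quasi-likelihood test, Benjamini-Hochberg adjustment over 11973 genes). Standard errors were taken as the size of the log2 fold change over the root of its F statistic. Replicates varied by 5.21% beyond sampling noise (square root of edgeR's common dispersion). No pair of replicates agreed within sampling noise (chi-square per degree of freedom 2.68 to 7.40). Mitochondrial mRNA took 4.27% to 4.61% of counts in Control and 4.07% to 4.75% with WNK463. TPM ratios were compared by an exact permutation test. Alternatives were DESeq2 1.42.0, total counts, RLE factors, other filters, a replicate block, limma 3.58.1 on log2(TPM + 1) and log2(TPM + 0.1), and each sample left out. The edgeR, DESeq2 and limma fits were tested on simulated counts in which only a small part of the genes changed. That test cannot speak for the scaling of data in which 70.8% of tested genes were called. It did not cover the ratio tests.

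The members and gene lists were chosen with earlier results of these data known. Named are all 10 members and, from each list, the called genes without overlap between groups that had the smallest p, up to 3 upwards and 3 downwards. Some genes are in more than 1 list. Gene coordinates are from GENCODE 29 and promoter windows from RefSeq.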

Additional observations from a re-analysis of the deposited data

How the results depend on the processing

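The directions and calls of NFE2L2, GCLM, GCLC, SRXN1, SLC7A11 and GSR held under all 15 alternatives. KEAP1, GPX4, TXNRD1 and NQO1 did not keep their sign. With total counts their log2 fold changes were 0.012, 0.036, 0.086 and 0.109, with limma on log2(TPM + 1) they were 0.056, 0.081, 0.126 and 0.078, with log2(TPM + 0.1) 0.057, 0.082, 0.126 and 0.08, and with log2(TPM + 1) without a filter 0.056, 0.081, 0.126 and 0.078. SOD1 stood at 0.017, 0.055, 0.056 and 0.055 in the same order. With each sample left out NQO1 ranged from -0.159 to 0.005. Members called lower numbered 2 with total counts and with each of the 3 TPM fits, 3 with at least 10 counts in every sample, where GPX4 lost its call, and 2 to 4 with a sample left out, against 4. Over all genes the 3 TPM fits called 2643, 2634 and 2635 genes lower, against 4222, and 266, 356 and 268 with the fold limit, against 665. Their called genes were 65.0% to 67.0% higher, on a scale whose sum is fixed per sample. A minimum of 10 counts in every sample left 740 genes higher with the fold limit, against 1152. The replicate block gave 4223 higher and 4175 lower genes, and samples with the same number did not deviate together (correlations 0.012, 0.027 and -0.068, with 1 of 3 Control samples closest to its own number). DESeq2 called 3997 higher and 4032 lower. Of 270 counts of called genes per list and alternative 239 were within 1.5 times. Of 779 values of 52 named list genes 760 kept direction and call, 15 lost the call (GSK3B, DPP3, AMER1, CCS and SOD1) and 4 turned, all SOD1. The cause was not tested. Depth limits the genes near the floor, such as HMOX1, CBS and PIR.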

Other observations

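Counts and TPM of SLC7A11 did not keep a fixed ratio between samples. Its count divided by its TPM, relative to its geometric mean over the 6 samples and after allowing for library size, was 1.12, 0.761 and 1.12 in Control and 1.12, 1.12 and 0.838 with WNK463. The second Control and the third WNK463 sample were low and the other samples lay together. The highest value was 1.47 times the lowest, and 4.69% of 9938 genes with at least 50 counts per sample had a wider range. For the other 9 members the highest value was 1.00 to 1.18 times the lowest. The TPM of SLC7A11 was 1.05, 1.70 and 1.04 in Control and 3.99, 3.88 and 4.54 with WNK463, so its groups were apart on this scale too. Which transcripts the deposited estimates assign to the gene was not tested.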
